A study of Ovis aries with 15 samples.

Results

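The interleukin 1 family is represented here by the agonist cytokines IL1A and IL1B, by IL1RN, the antagonist of their receptor, and by the related cytokine IL18, in the kidney cortex of fetal sheep. Members were chosen by symbol, with earlier results of these data known, so contrasts of members with all probes are descriptive. Every probe whose gene name on the array was IL1A, IL1B, IL1RN or IL18, in any case, was taken. These were 7 of 15008 probes and 4 of 1019 named genes, with 2 probes for IL1A, 1 each for IL1B and IL1RN, and 3 for IL18. IL1B is spelt with a hyphen in the array's annotation and was matched through the synonym that the sheep RefSeq table (assembly ARS-UI_Ramb_v3.0) gives for it.

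The arrays measured total RNA of the cortex of 15 chronically catheterised fetuses at 125 ± 3 d of gestation, 1 array with 1 dye (Cy3) per fetus. Fetuses underwent 30 min of hypoxia, imposed through the ventilation of the mother, or 30 min of normoxia. Ketamine, an anaesthetic and antagonist of the NMDA receptor, was given into the fetal circulation at 3 mg/kg 10 min beforehand, or saline vehicle was given, and the cortex was taken 24 h after the onset. Vehicle was given to 3 normoxic and 4 hypoxic fetuses and ketamine to 4 of each, all catheterised, so that surgery and catheters are shared by every group.

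Interleukin 1 alpha and beta bind the same receptor, whose intracellular part recruits the adaptor MYD88 and, through IRAK kinases, activates NF-kB. The alpha form is active as made and serves as an alarm signal of damaged cells. The beta and 18 forms are made as inactive precursors that caspase-1 cleaves in the inflammasome. The antagonist binds the receptor without activating it. In the kidney IL1A and IL1B are made mainly by macrophages and other leukocytes, and IL18 by tubular epithelium as well. An array measures transcripts and not the processed proteins.

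Of the 7 probes, 6 are shown because the results turn on them, each 60 bases long and written 5′ to 3′ as in the array's own annotation. The capitals mark the run of 20 bases that the first 2 probes of IL18 share. These 2 are therefore not independent measurements of IL18, while the 2 probes of IL1A start 136 bases apart and share no run longer than 5 bases.
IL1A, first probe: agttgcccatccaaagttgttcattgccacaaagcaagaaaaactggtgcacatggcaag
IL1A, second probe: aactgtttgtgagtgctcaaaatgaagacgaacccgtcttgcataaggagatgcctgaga
IL1B: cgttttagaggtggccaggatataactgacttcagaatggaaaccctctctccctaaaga
IL1RN: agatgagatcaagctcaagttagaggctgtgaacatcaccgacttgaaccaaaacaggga
IL18, first probe: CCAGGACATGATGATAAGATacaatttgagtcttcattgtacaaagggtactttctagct
IL18, second probe: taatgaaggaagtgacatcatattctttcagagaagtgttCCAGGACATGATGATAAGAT

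The first probe of each gene is the brighter one and represents the gene below. IL1B was printed in 5 spots per array, which were averaged, and every other member in 1 spot. The IL1RN probe and the third IL18 probe were designed from expressed sequence tags, and the third IL18 probe is named only. In the RefSeq gene order no gene lies between IL1A and IL1B, and 7 protein-coding genes lie between IL1B and IL1RN, among them IL36A, IL36B, IL36G, IL36RN, IL37 and IL1F10. IL18 lies on another chromosome. No probe was named for those neighbours or for any of the 11 receptors and binding proteins of the family that were listed, so these are not analysed here.

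Levels are given as log2 signal relative to the 75th percentile of the array's own signal, so that 0 is a bright probe and each step down is a halving. They compare fetuses within a probe and not probes with each other. The 75th percentile was 1071 to 1456 in signal units, and the share of probes well above background was 75.6% in hypoxia ketamine replicate 4 and 81.0% to 85.2% elsewhere. Over all probes the correlation of an array with the others had a median of 0.952 for hypoxia vehicle replicate 4 and 0.966 for hypoxia ketamine replicate 2, and of at least 0.969 for the rest. The probe of placental lactogen, a hormone of the placenta, gave such a signal in 3 fetuses, namely hypoxia ketamine replicate 2 and normoxia ketamine replicates 1 and 2. All 4 proximal tubule genes measured (summed level 45.6 to 92.0) were well above background on at least 1 array. A gene is said to have risen or fallen where limma gave it an unadjusted p no greater than 0.05, which is the cut-off in the study's own design. No result for a member passed Benjamini-Hochberg adjustment over all 12923 probes tested in limma (lowest adjusted p = 0.128), which 2 probes (0.0155%) passed for hypoxia in vehicle fetuses and 0 (0%) in the other comparisons, where 350 to 1125 probes had an unadjusted p within the cut-off. Values after ± are SE for changes and SD for levels.

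IL1B, the secreted agonist, was low and even in normoxia and higher in every hypoxic fetus. Its log2 level was -4.59, -4.78 and -4.59 in normoxia vehicle replicates 1 to 3 and -4.47, -4.60, -4.88 and -4.84 in normoxia ketamine replicates 1 to 4. In hypoxia vehicle replicates 1 to 4 it was 0.91, -2.25, -3.24 and 0.22, and in hypoxia ketamine replicates 1 to 4 it was -4.33, -2.59, -3.98 and -4.34. On this scale all 8 hypoxic fetuses lay above all 7 normoxic ones, a pattern whose share over all probes was not counted. In signal units, before scaling, the normoxic arrays read 39.2 to 59.8 and the hypoxic vehicle arrays 132 to 2097. The hypoxic ketamine arrays read 59.3 to 234 and so overlapped the normoxic ones before scaling. On no array did the dimmest probe that counted as above background exceed 18.7. The 2 hypoxic groups overlapped through hypoxia ketamine replicate 2 and hypoxia vehicle replicate 3.

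IL1A, the cell-associated agonist, was raised in part of the hypoxic vehicle group. The first probe read -4.84, -5.47 and -6.40 in the normoxic vehicle fetuses and -5.36, -6.36, -6.42 and -6.03 in the normoxic ketamine fetuses. It read -0.70, -3.12, -5.63 and -0.015 in hypoxia vehicle replicates 1 to 4, and -4.75, -4.78, -4.51 and -5.04 in hypoxia ketamine replicates 1 to 4. Hypoxia vehicle replicate 3 lay within the normoxic range while replicates 1, 2 and 4 lay above it, and the 4 hypoxic ketamine fetuses lay close together (SD 0.22).

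IL1RN, the receptor antagonist, read -6.01, -5.39 and -5.63 in the normoxic vehicle fetuses and -6.46, -5.82, -6.28 and -6.17 in the normoxic ketamine fetuses. In hypoxia vehicle replicates 1 to 4 the level was -1.33, -2.93, -3.09 and -0.62, all above every normoxic fetus. In hypoxia ketamine replicates 1 to 4 it was -7.02, -1.37, -5.12 and -4.79. Replicate 2 of that group lay among the hypoxic vehicle fetuses, replicates 3 and 4 lay just above the normoxic ones, and replicate 1 was the lowest of all 15 arrays and the only one on which the probe was not well above background.

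IL18, the inflammasome-processed cytokine that tubular cells also make, moved over a much narrower range. The first probe read -4.33, -3.87 and -4.48 in the normoxic vehicle fetuses and -4.13, -3.91, -3.64 and -3.82 in the normoxic ketamine fetuses. It read -3.13, -3.01, -3.74 and -3.50 in the hypoxic vehicle fetuses and -3.21, -3.76, -3.50 and -3.74 in the hypoxic ketamine fetuses. The hypoxic vehicle fetuses all lay above the normoxic vehicle fetuses, and 3 of them lay above all 7 normoxic fetuses.

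**Figure D1:**
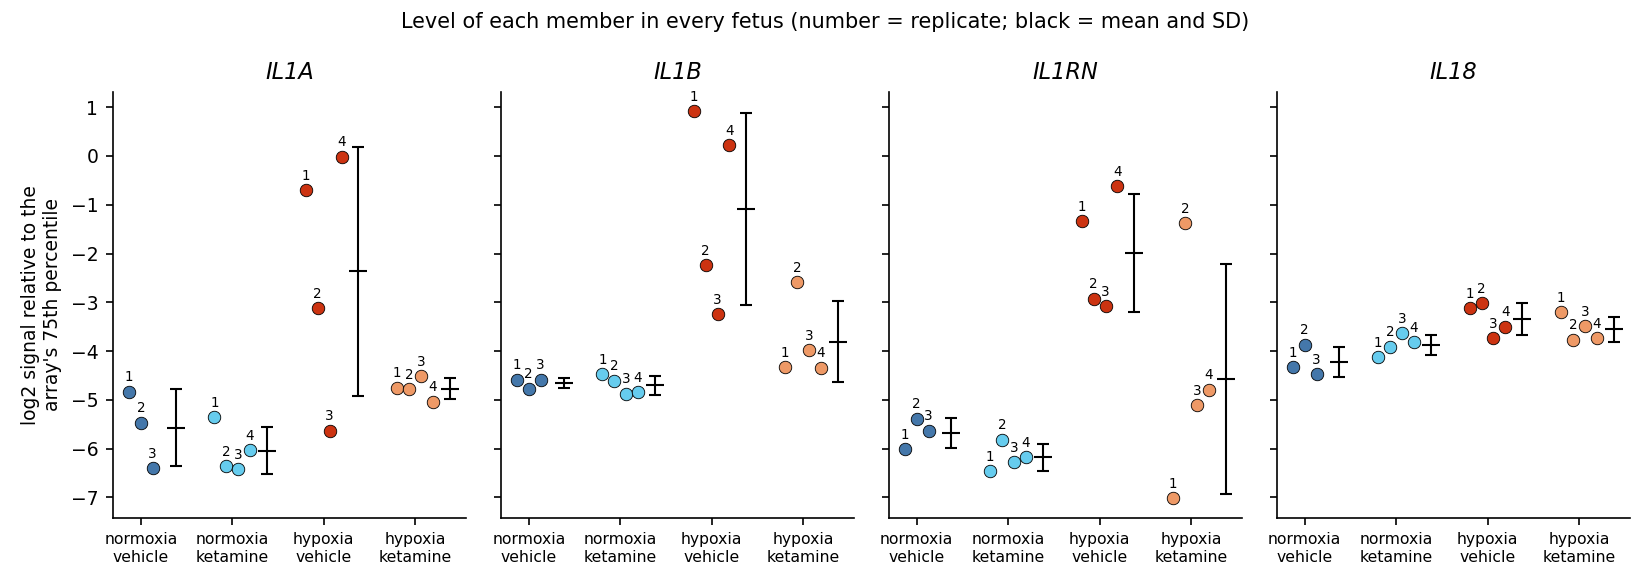
The vertical axis is the log2 signal of each gene's representative probe relative to that array's 75th percentile; each point is 1 fetus with its replicate number, and the black mark is the group mean with its SD. IL1A, IL1B and IL1RN spread over several log2 units among the hypoxic vehicle fetuses, whereas IL18 stays between -4.48 and -3.01 in all 15 fetuses.

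By group mean, IL1B was ordered normoxia ketamine (-4.70 ± 0.19), normoxia vehicle (-4.65 ± 0.11), hypoxia ketamine (-3.81 ± 0.83) and hypoxia vehicle (-1.09 ± 1.97). IL1A kept that order, with means of -6.04 ± 0.49, -5.57 ± 0.79, -4.77 ± 0.22 and -2.37 ± 2.55. IL1RN did as well, with -6.18 ± 0.27, -5.68 ± 0.31, -4.58 ± 2.35 and -1.99 ± 1.21. IL18 was ordered normoxia vehicle (-4.22 ± 0.32), normoxia ketamine (-3.88 ± 0.20), hypoxia ketamine (-3.55 ± 0.26) and hypoxia vehicle (-3.35 ± 0.34). For IL1B and IL1A the normoxic means differed by no more than the larger SD, for IL1RN and IL18 they differed by more than either SD with overlapping values, and the hypoxic groups overlapped for all 4 genes. In tissue RNA, fewer cells of a type and less RNA per cell cannot be told apart.

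The first comparison asked what hypoxia changed in fetuses given vehicle. All 4 genes rose by their representative probes, whereas the third IL18 probe fell. IL1B was 11.8-fold higher (log2 change 3.56 ± 0.78, adjusted p = 0.128 in limma) and IL1RN 12.9-fold higher (3.69 ± 0.97, adjusted p = 0.167). IL1A was 9.20-fold higher (3.20 ± 0.97, adjusted p = 0.174 in limma), while IL18 was 1.84-fold higher (0.88 ± 0.21, adjusted p = 0.132). The agonists and their antagonist thus differed from normoxia by changes with overlapping 95% intervals (1.88 to 5.25 for IL1B, 1.11 to 5.30 for IL1A and 1.60 to 5.77 for IL1RN), and that of IL18 was 0.43 to 1.33.

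Across the array 16% of probes passed the same threshold in this comparison, 5.88% higher in hypoxia and 10.1% lower, so that most called probes went the other way. Of the 7 member probes 6 rose and 1 fell, and their median log2 change was 3.20 against -0.05 over all probes tested. By gene, all 4 representative probes rose, with a median of 3.38. The groups did not overlap for IL1B, IL1RN and the first IL18 probe, which was so for 5.2% of all probes in that direction, and they overlapped for both IL1A probes and the second IL18 probe. The third IL18 probe did not overlap in the other direction, as 9.36% of probes did. With 3 against 4 fetuses an exact two-sided permutation test cannot give less than 0.0571. IL1B, IL1RN and the first IL18 probe reached that value, and so did the third IL18 probe in the other direction. The second IL18 probe had 0.114 and IL1A had 0.171 by that test.

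The second IL1A probe was dimmer and moved with the first. It was well above background on 3 of 4 hypoxic vehicle arrays and 1 of 3 normoxic vehicle arrays, and it rose by 3.75 ± 1.19 (adjusted p = 0.184 in limma). The second IL18 probe rose by 0.75 ± 0.27 (adjusted p = 0.225 in limma). The third IL18 probe went the other way and fell by 0.99 ± 0.41 (adjusted p = 0.264 in limma). It was well above background on 3 of 3 normoxic and 0 of 4 hypoxic vehicle arrays, so it was at least 1.62-fold lower, and its measured means were -6.29 and -7.29. Over the 15 arrays the first 2 IL18 probes correlated with r = 0.948, and the third with the first with r = -0.278. The IL18 rise therefore holds for the 2 overlapping probes and not for the third. The second probe lost its call without hypoxia vehicle replicate 2 (0.59) and, separately, with normoxia vehicle replicate 3 left out (0.54). The third did not pass without normoxia vehicle replicate 1 (-0.77) or 3 (-1.01) or hypoxia vehicle replicate 2 (-0.97) or 3 (-0.90).

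The increases were carried unequally by the hypoxic vehicle fetuses. The SD of IL1A in that group was 2.55, larger than for 99.5% of all probes tested, that of IL1B was 1.97 (98.6%) and that of IL1RN 1.21 (95.4%), against a median probe SD of 0.29. IL18 had an SD of 0.34, larger than for 58.2% of probes. Replicates 1 and 4 had the 2 highest levels of all 15 arrays for IL1B, IL1A and IL1RN. Replicate 4 was also 1 of the 2 arrays least like the others. Without it IL1B still differed from normoxia by 3.13 and IL1RN by 3.23, and IL1A by 2.42, all past the threshold.

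The 2 slides of arrays each held every group, and slide 2 held a single normoxic vehicle array. Within slide 1 the change was 3.67 for IL1B, 3.58 for IL1A, 3.93 for IL1RN and 0.84 for IL18, all past the threshold. Within slide 2 it was 3.43 for IL1B, 3.24 for IL1A, 3.42 for IL1RN and 1.05 for IL18, and there IL1B and IL1A missed the threshold. With normexp background correction the changes were smaller, at 2.43 for IL1B, 1.88 for IL1RN and 1.81 for IL1A, which passed, and 0.39 for IL18, which did not. The second IL1A probe (1.198), the second IL18 probe (0.33) and the third (-0.31) did not pass with it either.

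**Figure D2:**
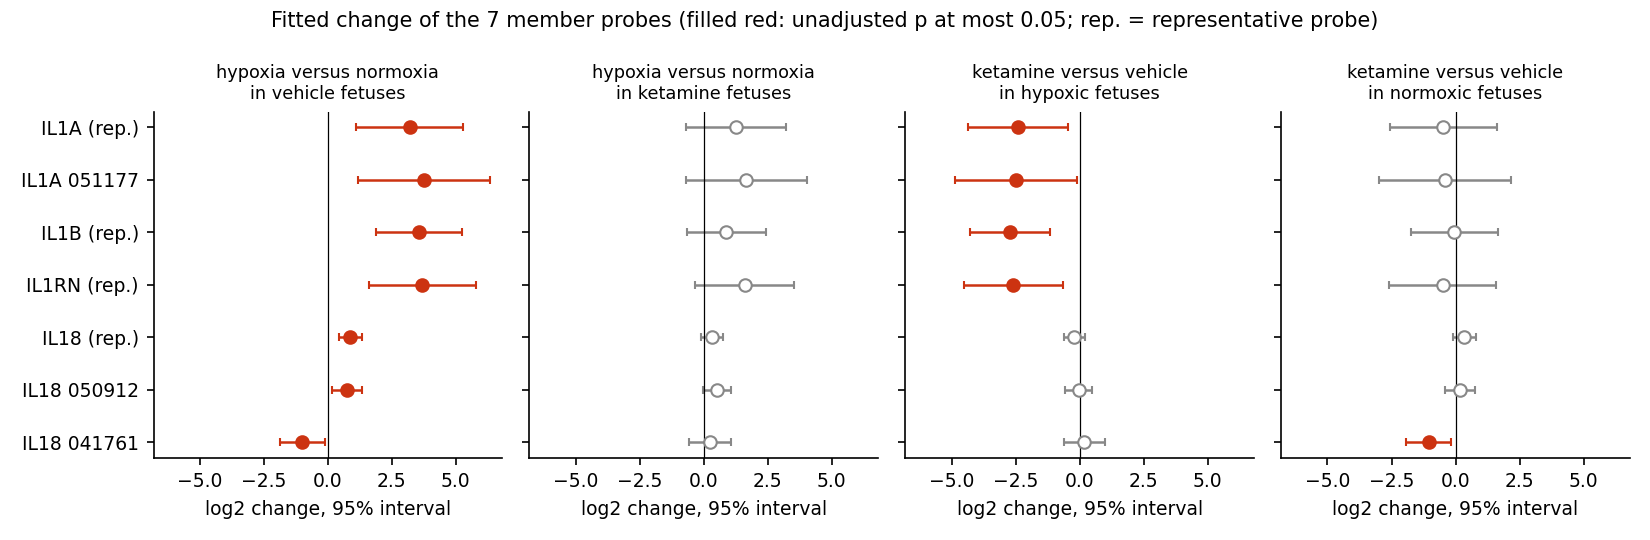
The horizontal axis is the fitted log2 change with its 95% interval for the 7 member probes in 4 comparisons; filled red points passed the unadjusted threshold of 0.05. The changes after hypoxia in vehicle fetuses lie near 3 to 4 for IL1A, IL1B and IL1RN and below 1 for IL18, and the ketamine panel of hypoxic fetuses shows negative values for the same 3 genes and values near 0 for IL18.

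The second comparison asked the same of fetuses given ketamine. None of the 7 probes passed the threshold, where 8.71% of all probes did, 3.54% higher and 5.17% lower. The log2 change was 1.60 ± 0.90 for IL1RN, 1.27 ± 0.90 for IL1A, 0.89 ± 0.72 for IL1B and 0.32 ± 0.19 for IL18. The 95% intervals were -0.33 to 3.54, -0.67 to 3.21, -0.67 to 2.45 and -0.09 to 0.74. The median over the 7 probes was 0.89 against -0.03 over all probes.

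In limma these genes carry 1 variance shared with the widely spread hypoxic vehicle group. For IL1A and IL1B the hypoxic ketamine fetuses all lay above the normoxic ketamine fetuses, a pattern that 2.65% of probes showed in that direction and 3.84% in the opposite one, and the exact two-sided permutation p was 0.0286 for each, the smallest that 4 against 4 allows. A fit to these 2 groups alone gave the same changes, and IL1A and IL1B passed the threshold in it. For IL1B the lack of overlap held in scaled levels only. Before scaling, hypoxia ketamine replicate 4 read 59.3 and normoxia ketamine replicate 1 read 59.8. IL1RN overlapped, with replicate 1 the lowest array and replicate 2 among the highest. Its change was 2.42 without hypoxia ketamine replicate 1, past the threshold, and 0.54 without replicate 2. It was 3.06 within slide 1, which holds replicate 2, and 0.15 within slide 2, which holds replicate 1.

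The second IL1A probe cleared background in 3 of 4 hypoxic ketamine fetuses and in 0 of 4 normoxic ones (measured means -6.35 and -8.02). With the normoxic arrays set at least at their lowest signal called well above background, it was 1.55-fold higher. The remaining hypoxic array kept its measured value, so this is not a strict lower bound. The second IL18 probe differed by 0.52 ± 0.25, and the third by 0.25 ± 0.38. The IL1B level of hypoxia ketamine replicates 1, 3 and 4 exceeded the highest normoxic level by small amounts, as the plot of levels shows, and replicate 2 stood above them. Without replicate 2 the IL1B change was 0.48.

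The third comparison, ketamine against vehicle among hypoxic fetuses, addressed the study's question of what the drug changed in the response. IL1B fell by 2.72 ± 0.72 on the log2 scale (6.59-fold lower). IL1RN fell by 2.58 ± 0.90 and IL1A fell by 2.41 ± 0.90 (5.30-fold lower). The second IL1A probe fell by 2.50, with a 95% interval of -4.87 to -0.12, and no longer passed without any 1 of the 4 hypoxic ketamine fetuses, hypoxia vehicle replicate 1, 2 or 4, or replicate 2 of either normoxic group (-2.66 to -1.68). IL18 did not pass: the first probe differed by -0.21 with a 95% interval of -0.62 to 0.21, the second by -0.04 with an interval of -0.58 to 0.50, and the third by 0.19. Adjusted p-values in limma were 0.787 to 0.806 for the 3 genes that fell.

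Here 6.04% of all probes were called, 3.66% lower and 2.38% higher with ketamine, against 4 of the 7 member probes lower, and the members' median change was -2.41 against 0.01. By gene, 3 of the 4 representative probes were lower, with a median of -2.50. The 3 genes had overlapping groups, where 1.05% of probes were lower and 0.99% higher without overlap, and the exact two-sided permutation p was 0.0571 for IL1B, 0.0857 for IL1RN and 0.143 for IL1A, so that none passed by that test. In a fit to the 2 hypoxic groups alone IL1B passed, and IL1A and IL1RN did not.

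Single fetuses set the size of these differences. For IL1A the difference was -1.85 without hypoxia vehicle replicate 1 and -1.62 without replicate 4, neither past the threshold, and it was -3.49 without replicate 3. Without replicate 3 the IL1A interaction (-3.02) and its change after hypoxia in ketamine fetuses (1.27) also passed. For IL1B it ranged from -3.44 to -2.05 over all arrays left out in turn and passed each time. For IL1RN it ranged from -3.65, without hypoxia ketamine replicate 2, to -1.77, without hypoxia ketamine replicate 1, and passed each time. Without both arrays that stood apart, IL1A differed by -1.62 and did not pass.

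By slide, IL1B differed by -2.45 within slide 1 and -2.99 within slide 2, past the threshold on slide 1. IL1A differed by -3.34 and -1.47, past it on slide 1, and IL1RN by -1.31 and -3.86, past it on slide 2. With normexp background correction IL1RN differed by -1.06 and did not pass, nor did the second IL1A probe (-0.95), and IL1B (-1.92) and IL1A (-1.51) passed. Without the 3 arrays with placental lactogen, IL1A differed by -2.40 and did not pass, and IL1RN by -3.65 and passed.

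**Figure D3:**
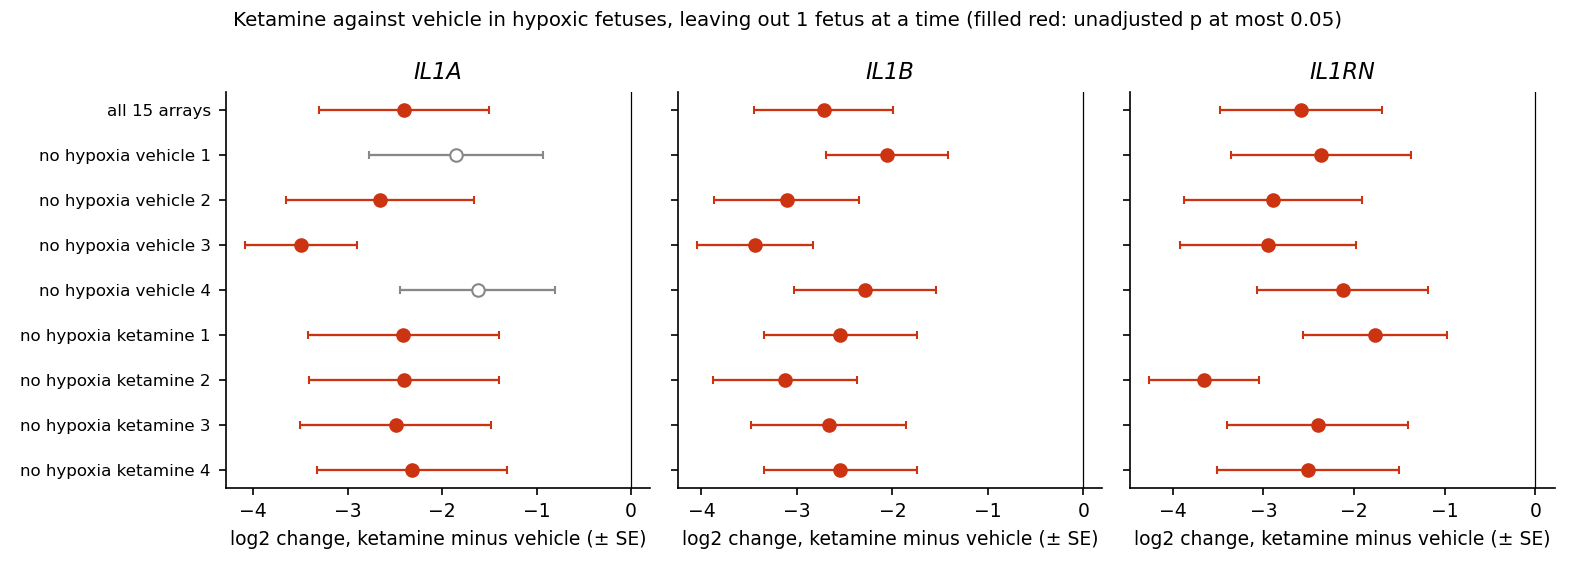
The horizontal axis is the log2 change of ketamine minus vehicle in hypoxic fetuses with its SE, for all 15 arrays and without each of the 8 hypoxic fetuses in turn; filled red points passed the unadjusted threshold of 0.05. IL1B and IL1RN pass in every row, and IL1A does not without hypoxia vehicle replicate 1 or 4.

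In normoxic fetuses 1 of the 7 member probes passed with ketamine against vehicle. The log2 difference was -0.05 ± 0.78 for IL1B, -0.47 ± 0.97 for IL1A, -0.50 ± 0.97 for IL1RN and 0.35 ± 0.21 for IL18, none past the threshold. The intervals of the first 3 spanned -1.73 to 1.64, -2.57 to 1.62 and -2.59 to 1.58, with a variance shared with the hypoxic groups. In a fit to the normoxic groups alone IL1RN passed, with overlapping groups, and the third IL18 probe did not. In the fit to all groups the third IL18 probe fell, by 1.06 ± 0.41 on the log2 scale, with 2 of 4 ketamine and 3 of 3 vehicle arrays well above background. Over all probes 2.71% were called, 1.73% lower and 0.975% higher. The groups did not overlap for that probe, as for 4.41% of probes in that direction and 2.55% in the other, and it did not pass without normoxia vehicle replicate 1 (-0.84). Without normoxia ketamine replicate 2, which lay at -8.76 against -6.92 to -6.81 in the rest of its group, the difference was -0.59 and passed. It did not pass with normexp (-0.36), within slide 2 (-0.54) or without the arrays with placental lactogen (-0.57).

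The interaction tests whether the response to hypoxia differed between ketamine and vehicle. It passed for IL1B, whose response was smaller with ketamine (log2 -2.67 ± 1.07, adjusted p = 0.992 in limma), and for the third IL18 probe (1.24 ± 0.55). It did not pass for IL1RN (-2.08 ± 1.32), IL1A (-1.93 ± 1.33) or the first IL18 probe (-0.56 ± 0.28). Over all probes 3.1% were called, 1.91% with a positive and 1.18% with a negative interaction. The IL1B value was -2.24 without hypoxia vehicle replicate 4, -2.60 within slide 1, -2.72 within slide 2 and -1.71 with normexp, and did not pass in these, and that of the third IL18 probe did not pass without any 1 of 6 arrays (1.02 to 1.26), namely replicates 1 and 3 of normoxia vehicle and of hypoxia ketamine and replicates 2 and 3 of hypoxia vehicle. Without normoxia ketamine replicate 2 it was 0.77 and passed, and it did not pass with normexp (0.70) or without the arrays with placental lactogen (0.82). The value of IL1RN was -3.15 without hypoxia ketamine replicate 2 and passed.

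The balance of antagonist and agonist was followed as IL1RN minus IL1B within each array. This difference was -1.03 ± 0.41 in normoxic vehicle, -1.48 ± 0.35 in normoxic ketamine, -0.90 ± 0.997 in hypoxic vehicle and -0.77 ± 1.62 in hypoxic ketamine fetuses. Hypoxia changed it by 0.12 in vehicle fetuses and by 0.71 in ketamine fetuses, and ketamine by 0.14 in hypoxic and -0.46 in normoxic fetuses. No comparison passed the exact two-sided permutation test (p = 0.857, 0.429, 0.914 and 0.229; 4 tests, adjusted p at least 0.857).

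The widest values lay within the hypoxic ketamine group, at 1.21 in replicate 2 and -2.69 in replicate 1. In the hypoxic vehicle group replicate 1, which had the highest IL1B of all arrays, had -2.25, and replicate 3, with the lowest IL1B of its group, had 0.15. The mean balance differed by less than the larger SD of the groups in 3 of the 4 comparisons, and by more than either SD between the normoxic groups.

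Among the members themselves, IL1A and IL1B followed each other over the 15 arrays (r = 0.932) and also after the group means were taken out (r = 0.840). IL1B and IL1RN had r = 0.892 and 0.689 after the means were taken out, and IL1A and IL1RN 0.760 and 0.368. The first IL18 probe had r = 0.570 with IL1B and 0.05 within groups. These are descriptions over arrays that share the scaling and the conditions.

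**Figure D4:**
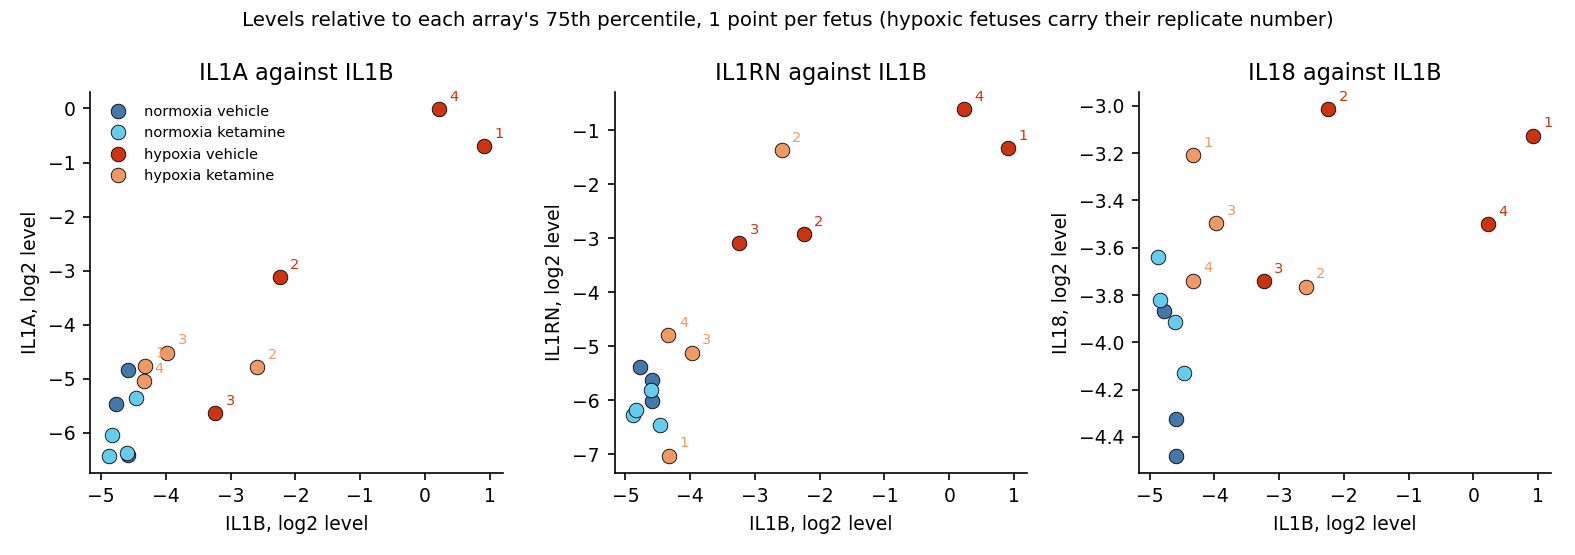
Each point is 1 fetus, with the log2 level of IL1B on the horizontal axis and that of IL1A, IL1RN or IL18 on the vertical axis, relative to the array's 75th percentile. Hypoxia vehicle replicates 1 and 4 sit at the upper right for IL1A and IL1RN, hypoxia ketamine replicate 2 has high IL1RN at a lower IL1B, and IL18 shows no such alignment.

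By the likeness of their levels over the 15 arrays, among 886 named genes, the 5 genes nearest to IL1B were the neutrophil attractant CXCL8 (r = 0.979, and 0.957 within groups), the AP-1 factor JUNB (0.972), the cytokine IL6 (0.940), the NF-kB inhibitor NFKBIA (0.939) and the adaptor MYD88 (0.937). Those nearest to IL1A were IL1B, the small GTPase RHOB (0.927), JUNB (0.925), CXCL8 (0.922) and IL6 (0.914). Those nearest to IL1RN were the macrophage cytokine TNF (0.941), CALCA, which encodes calcitonin and a related peptide (0.900), IL1B, the interferon regulatory factor IRF1 (0.892) and MYD88 (0.888). Rank (Spearman) correlations were lower for the neighbours of these 3 genes. They were 0.607 (MYD88) to 0.857 (CXCL8) for IL1B and 0.625 (RHOB and JUNB) to 0.854 (IL1B) for IL1A. For IL1RN they were 0.546 (MYD88) to 0.818 (CALCA). Nearest to IL18 were the cyclin CCNA2 (0.637), NFKBIA (0.608), SELP (0.608), JUNB (0.605) and the hyaluronan receptor RHAMM (0.602), of which NFKBIA and SELP had r of 0.04 within groups.

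Of the genes that process these cytokines, only 2 of 20 listed had a named probe. These were CTSB, a lysosomal protease, and TXNIP, which binds the inflammasome sensor, and neither passed in any of the 5 comparisons. Their log2 changes after hypoxia in vehicle fetuses were 0.06 ± 0.16 and -0.10 ± 0.17. Caspase-1 and the inflammasome sensors are not analysed here.

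Of 26 genes of receptor signalling, 4 were measured. MYD88, the receptor adaptor, rose by 0.58 ± 0.18 after hypoxia in vehicle fetuses and fell by 0.48 ± 0.17 with ketamine in hypoxic fetuses. The kinase IKBKB, which releases NF-kB, rose by 0.65 ± 0.26 in the first comparison, and TRAF3, a signalling regulator, fell by 0.62 ± 0.19 with ketamine in hypoxia. IRAK4, the kinase recruited by MYD88, passed in no comparison (0.39 ± 0.34 after hypoxia in vehicle fetuses). Of the feedback genes, NFKBIA and ZFP36, which destabilises cytokine transcripts, were measured. Both rose in the first comparison (2.55 ± 0.54 and 1.39 ± 0.52) and fell with ketamine in hypoxia (-1.60 ± 0.50 and -1.27 ± 0.48). Across the array 5.88% of probes rose in the first comparison and 3.66% fell with ketamine in hypoxia. No signalling or feedback gene passed adjustment (lowest adjusted p = 0.113 in limma, for NFKBIA after hypoxia in vehicle fetuses).

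Of 29 genes known to be induced by interleukin 1, 15 were on the array and 11 bright enough to test. After hypoxia in vehicle fetuses 6 rose and 0 fell, with a median log2 change of 2.70 against -0.05 over all probes. PTX3, a soluble pattern recognition protein, rose by 5.04 ± 1.41, SELP, an adhesion molecule of endothelium and platelets, by 4.86 ± 1.15 and CXCL8 by 4.57 ± 1.24. IL6, a cytokine of the acute phase, was well above background on 2 of the 4 hypoxic arrays and 0 of the 3 normoxic ones. With the normoxic arrays set at least at their lowest signal called well above background, it was 27.0-fold higher. This is not a strict lower bound, because the dim hypoxic arrays kept their measured values. Hypoxic levels ran from -6.75 to 3.01 (SD 5.14). In ketamine fetuses only TNF rose (1.51 ± 0.62), and the list's median was 1.01, or 0.90 with the normoxic IL6 arrays set in the same way. With ketamine in hypoxic fetuses 4 fell and 0 rose: CXCL8 by 3.32 ± 1.15, TNF by 2.65 ± 0.62, SELP by 2.55 ± 1.06 and the prostaglandin synthase PTGS2 (log2 change -1.82 ± 0.84). Across the array 5.88% of probes rose in the first of these comparisons, 3.54% rose in the second and 3.66% fell in the third. No gene of this list passed adjustment (lowest adjusted p = 0.0662 in limma, for TNF after hypoxia in vehicle fetuses). CSF2, CSF3 and MMP1 were not well above background on any array.

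Of 13 genes listed for the IL18 axis, 4 were tested. CXCL10, an interferon-induced T cell attractant, rose after hypoxia in vehicle fetuses (3.36 ± 1.54) and in ketamine fetuses (3.14 ± 1.42). IFNG, the interferon that IL18 induces in lymphocytes, changed by 0.74 and 0.18 without passing, and IL12A and IL15 did not pass either.

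Markers of leukocytes moved in part with these genes. Of 7 monocyte and macrophage markers measured, 5 rose after hypoxia in vehicle fetuses and 4 in ketamine fetuses, and 0 of 7 differed with ketamine in hypoxic fetuses (limma, by the unadjusted cut-off). Of all probes 5.88% and 3.54% rose in the first 2 of these comparisons, and 6.04% differed in the third. Their summed level, in multiples of the array's 75th percentile, was 0.96 to 1.08 in normoxic vehicle, 0.91 to 1.204 in normoxic ketamine, 1.36 to 4.29 in hypoxic vehicle and 1.40 to 4.33 in hypoxic ketamine fetuses. Of 4 neutrophil genes 0 passed after hypoxia in vehicle fetuses and 2 rose in ketamine fetuses (CATHL1B and CATHL3). All 4 log2 changes were positive in both arms, at 0.94 to 1.99 and 1.74 to 3.17, and 0 passed for the interaction. Their summed level was 1.92 to 8.19 in normoxic vehicle and 0.79 to 2.82 in normoxic ketamine fetuses. It was 1.73 to 125 in hypoxic vehicle and 3.01 to 71.5 in hypoxic ketamine fetuses, so the vehicle ranges overlapped. No marker of either list was below background on all 15 arrays.

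Fetus by fetus the sums and the cytokines did not follow one order. Hypoxia vehicle replicate 1, with the highest IL1B, had the lowest monocyte sum of the 8 hypoxic fetuses (1.36), and hypoxia vehicle replicate 3, with the lowest IL1B of its group, had the highest sum there (4.29) and the highest neutrophil sum of all (125). Hypoxia ketamine replicate 2, with the highest IL1RN and IL1B of its group, had the highest monocyte sum of all 15 arrays (4.33) and a neutrophil sum of 71.5. The sums add signals on a linear scale, so the brightest markers weigh most in them. The part of these cells in the changes of IL1A, IL1B and IL1RN was not tested.

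**Figure D5:**
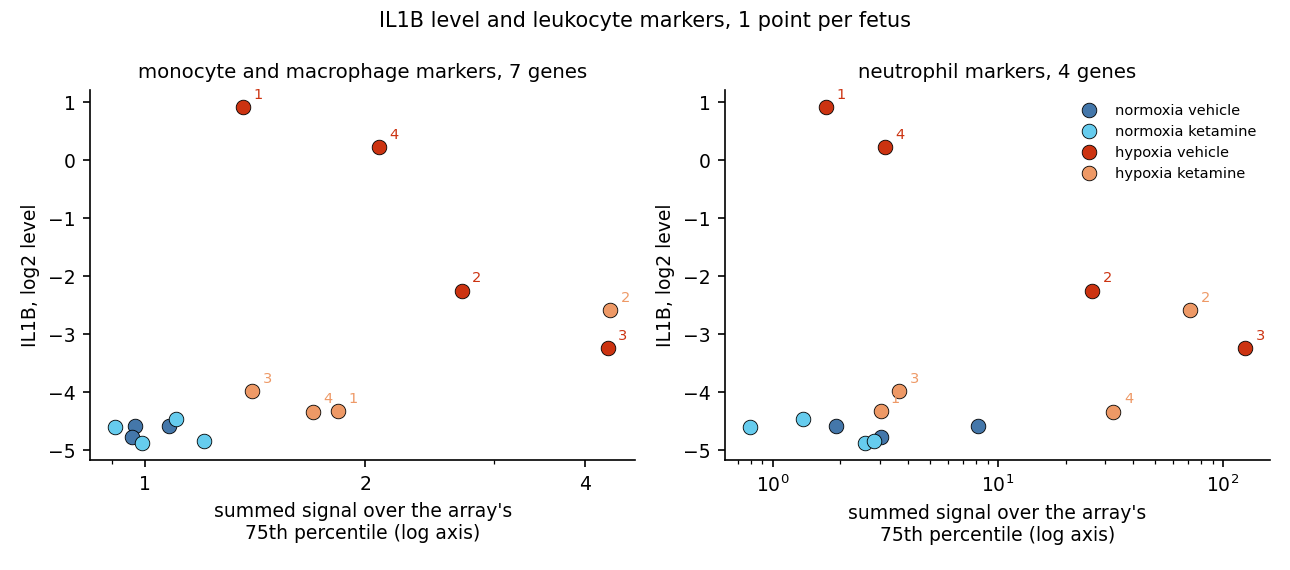
The horizontal axis is the summed signal of 7 monocyte and macrophage or 4 neutrophil marker genes in multiples of the array's 75th percentile, on a log axis, and the vertical axis is the log2 level of IL1B; each point is 1 fetus. Hypoxia vehicle replicates 1 and 4 combine high IL1B with sums of 1.36 and 2.09 for monocytes, and hypoxia vehicle replicate 3 and hypoxia ketamine replicate 2 have sums above 4 with lower IL1B.

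The value table the study deposited holds 5 of the 7 member probes. On it the change after hypoxia in vehicle fetuses was 2.91 for IL1B, 2.57 for IL1RN, 2.32 for IL1A and 0.62 for IL18, and with ketamine in hypoxic fetuses -2.31, -1.70, -1.95 and -0.07. The same genes passed as on the scanner values in these 2 comparisons.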

How the data were processed

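Members and gene lists were chosen with earlier results of these data known. Per the file headers, Agilent Feature Extraction 10.1.1.1 gave each spot a processed signal, a background-subtracted intensity on a linear scale, in the deposited scanner files. A deposited table of 11705 probes holds log2 values, with limma named in the submitters' processing notes and its background correction and filter not stated in what was used here. Of its 15 columns, 12 tracked another array of their own group best (r of 0.909 to 0.976), and replicates are numbered by scanner file.

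The processed intensity was taken to log2, averaged over spots not called outliers, and centred on each array's 75th percentile. Probes well above background on at least 3 of 15 arrays (12923 of 15008) were fitted in limma 3.58.1 (R 4.3.3), 1 mean per group, with 11 residual and 2.39 prior degrees of freedom. The method was tested on simulated data. A gene was represented by its probe with the highest mean signal. Named genes were all members, the 5 most similar genes of each, and genes of fixed lists past an unadjusted p of 0.05 (at most the 4 largest per list outside signalling and processing). Where 1 group had no array well above background, its arrays were set at least at their own lowest signal called well above background. The fold is a lower bound where every array of the other group was well above background. Elsewhere the dim arrays of the other group kept their measured values. No clear pairing of arrays by replicate number was seen (median correlation of deviations 0.04 for the same number, lowest -0.29), which does not exclude one. The labels do not link fetuses to litters, so p-values measure the spread between these fetuses. The number of arrays limits the precision.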

Additional observations from a re-analysis of the deposited data

Results flagged for a closer look

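IL1B's response to hypoxia differed between ketamine and vehicle fetuses by -2.67 on the log2 scale (interaction, adjusted p = 0.992 in limma). In scaled level IL1B was higher in 4 of 4 hypoxic fetuses of either arm than in any normoxic fetus, and the share of probes with this pattern was not counted. Within an arm, 5.2% of probes lay higher in hypoxia without overlap in vehicle fetuses and 2.65% in ketamine fetuses. In signal units before scaling the hypoxic ketamine and normoxic arrays overlapped. The third IL18 probe gave an interaction of 1.24, with 3 of 3 normoxic vehicle, 2 of 4 normoxic ketamine, 0 of 4 hypoxic vehicle and 1 of 4 hypoxic ketamine arrays well above background. On that probe normoxia ketamine replicate 2 lay at -8.76, far below the nearest array of its group (-6.92). This was 1 such array among 21 sets of 4 examined, and chance flags about 1 group in 20.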

How the results depend on the processing

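Calls are counts of the 7 member probes past an unadjusted p of 0.05 in limma: 7 after hypoxia in vehicle fetuses, 0 after hypoxia in ketamine fetuses, 4 with ketamine in hypoxia, 1 with ketamine in normoxia and 2 for the interaction. Of all probes 16%, 8.71%, 6.04%, 2.71% and 3.1% were called in these comparisons. In that order of comparison, leaving out 1 array at a time gave 5 to 7, 0 to 3, 2 to 4, 0 to 2 and 1 to 4. Normexp gave 3 after hypoxia in vehicle fetuses, 2 with ketamine in hypoxia, and 0 for ketamine in normoxia and for the interaction. Requiring all 15 arrays well above background, which leaves 4 probes, gave 4, 2, 0 and 1 for those same comparisons. Within slide 2 these were 3, 1, 0 and 1, and within slide 1 ketamine fetuses gave 1 after hypoxia and the interaction 0. Fits to the groups compared gave 4 after hypoxia in ketamine fetuses and 1 with ketamine in hypoxia. Array weights gave 1 after hypoxia in ketamine fetuses, 2 in normoxia and 4 for the interaction. Quantile scaling gave 1 for the interaction, and the deposited values, with 5 probes, gave 0 in normoxia and 1 for the interaction. Without the 3 arrays with placental lactogen there were 2 with ketamine in hypoxia and 0 in normoxia, and without the 2 arrays that stood apart 2 in hypoxia. Exact permutation tests gave 2 after hypoxia in ketamine fetuses and 0 with ketamine in hypoxia. The cause of these shifts was not tested, apart from the fewer probes or arrays named. Shares of all probes called under the alternatives are not given here. The counts therefore do not show whether a shift was particular to the members. The alternatives on placental lactogen and on arrays that stood apart were chosen after seeing the data.

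IL1RN minus IL1B turned to -0.56 (normexp) and -0.33 (deposited) after hypoxia in vehicle fetuses, and without the placental lactogen arrays to -0.065 after hypoxia in ketamine fetuses and -0.52 with ketamine in hypoxia. Leaving out 1 array, it ranged from -0.23 to 0.57, from 0.05 to 1.36, from -0.52 to 0.78 and from -0.66 to -0.25 in the 4 comparisons in their order above.

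Values that changed sign were uncalled in either setting. For ketamine in hypoxia the first IL18 probe gave 0.090 (normexp) and 0.081 (slide 2). The second gave 0.15 (normexp), 0.0069 (quantile), 0.40 (slide 2), 0.0086 (deposited), 0.035 (array weights), 0.039 (without placental lactogen arrays) and -0.22 to 0.12 leaving out 1 array. The IL18 probe from an expressed sequence tag gave -0.17 within slide 1, and after hypoxia in ketamine fetuses -0.17 without placental lactogen arrays and -0.22 to 0.43 leaving out 1 array. For ketamine in normoxia IL1B gave 0.0074 (quantile), 0.0038 (slide as a block), 0.15 (slide 1) and -0.12 to 0.014 leaving out 1 array. There the IL1A probes gave 0.18 and 0.12 within slide 2, the second IL1A probe -0.97 to 0.073 leaving out 1 array, and the second IL18 probe -0.16 within slide 1 and -0.020 to 0.41 leaving out 1 array. The interaction under normexp was 0.0039 and 0.14 for the first 2 IL18 probes.

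With the replicate number as a block the counts of calls were 7, 0, 4, 1 and 2, and IL1B differed by 3.49 after hypoxia in vehicle fetuses. Deviations of same-numbered arrays had a median correlation of 0.04 (-0.29 to 0.37), against -0.003 (-0.28 to 0.29) for other pairs. No clear pairing by number was seen, which does not exclude one. Signals near background limit IL1RN, the second IL1A probe and the IL18 probe from a sequence tag.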
